A study of Homo sapiens with 18 samples.

Results

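3A4 is a clone of HCT116, an established human colorectal carcinoma line, with the R132C mutation in 1 allele of IDH1. It was compared with the wild-type clones of the same series. The comparison was defined by the array titles and takes 6 of 18 arrays and 3 of 9 clones: 2 arrays of 3A4, 2 of the parental line and 2 of clone 16F8. All 9 clones derive from HCT116, were untreated and were harvested after 6 days of growth, and the 2 arrays of a clone are labelled as biological replicates. 3A4 is R132C/+ and expresses the mutant allele, per the labels. 16F8 is also R132C/+ but its mutant allele is not expressed, so that the labels class it as wild-type by mRNA, and the parental line is wild-type. 3A4 was the only clone with an expressed R132C allele, so that a difference of the mutation and a difference of the clone cannot be told apart. The other 6 clones carry IDH1 R132H (2C11 and 2H1), IDH2 R140Q (8G12 and 17H5) or IDH2 R172K (47C2 and 45G3) and were used only to see where 3A4 stood apart.

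IDH1 encodes the cytosolic isocitrate dehydrogenase, which makes 2-oxoglutarate and NADPH. Mutation of this arginine gives the enzyme a new activity that reduces 2-oxoglutarate to 2-hydroxyglutarate, a metabolite that can inhibit dioxygenases such as the TET and JmjC demethylases. A theme of the study is EMT, the change of epithelial cells towards a mesenchymal state, in which cells lose junction and polarity genes under repressors such as ZEB1 and gain mesenchymal genes.

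Signals are Affymetrix MAS5 values on a linear scale, scaled by the authors to 1 level in every array. Differences are on the scale of log2(signal + 2.2), which understates the change of dim genes, and each error of a difference is a standard error. Array medians lay between 12.3 and 15.6, so that a gene under about this level is near the background. The 2 arrays of 3A4 correlated at 0.987, those of parental at 0.985 and those of 16F8 at 0.986 (Pearson, across genes). Arrays of 3A4 correlated with those of parental at 0.973 to 0.976 and with those of 16F8 at 0.977 to 0.978. In 4 arrays the spiked-in poly-A transcripts stood 1.67-fold above the rest, among them parental 1 and 16F8 1 but neither array of 3A4. The defining epithelial markers EPCAM, KRT8, KRT18 and CDH1 were bright in all 6 arrays. Of 10 fibroblast, 9 haematopoietic and 8 endothelial markers on the array 1, 2 and 2 were bright enough to be tested, and PTPRC, CD3E, PDGFRA and COL3A1 had signals of 0.1 to 4.3 in the 6 arrays. Their summed signals in 3A4 and in the wild-type arrays were 206 to 223 and 249 to 378 for fibroblast markers, 79.6 to 82.9 and 32.0 to 42.4 for haematopoietic markers, and 155 to 161 and 136 to 183 for endothelial markers. The haematopoietic sum moved with LYZ, the lysozyme gene, at 60.4 and 59.7 in 3A4 against 9.5, 8.2, 19.4 and 9.7 in the wild-type arrays. The part of these markers in the results was not tested, and in bulk RNA fewer cells of a type and less RNA per cell cannot be told apart.

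3A4 differed from the wild-type clones in a large part of the transcriptome, and the wild-type clones also differed from each other. Against the mean of parental and 16F8, 4446 of 12541 genes passed limma's test (35.5% of the genes tested), 1925 higher (15.3%) and 2521 lower (20.1%) in 3A4. Against parental 4669 genes passed (37.2%), with 17.6% of all genes higher and 19.6% lower. Against 16F8 3303 passed (26.3%), with 10.4% higher and 16% lower. 16F8 itself differed from parental in 2760 genes (22%), with 12.4% higher and 9.57% lower. Of the genes called against the wild-type mean, 2412 did not pass against both clones in 1 direction, and in 86 genes 3A4 was called above one wild-type clone and below the other. A gene is therefore called higher or lower here only where 3A4 passed against parental and against 16F8 in the same direction. This rule called 2034 genes (16.2%), with 774 higher (6.17%) and 1260 lower (10%), and 237 of the higher and 436 of the lower ones differed by 2-fold or more from the wild-type mean. Without the second 3A4 array the rule called 1140 genes. These tests compare clones over replicate arrays. On clone means, where the single R132C clone is assumed to vary like the other genotypes, 141 genes passed (1.12%), 38 higher (0.303%) and 103 lower (0.821%), and all 141 were also called against both wild-type clones. That count was 302 without the first 3A4 array and 71 without the first parental array.

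The mutated gene was checked first. The IDH1 signal was 1492 and 1629 in 3A4, against 1694 and 2008 in parental and 1036 and 1213 in 16F8. 3A4 thus lay between the wild-type clones, with a log2 difference of -0.24 ± 0.12 from parental (limma adjusted p = 0.118) and 0.48 ± 0.12 from 16F8 (adjusted p = 0.00648). These probe sets read both alleles, and so do not tell mutant from wild-type transcript. IDH2, the mitochondrial isoform, differed by -0.05 ± 0.18 from the wild-type mean, and D2HGDH, the dehydrogenase that clears D-2-hydroxyglutarate, by -0.20 ± 0.23. Neither passed. A second IDH2 probe set gave 0.88 from parental and -0.105 from 16F8. Of 30 tested genes of IDH and 2-hydroxyglutarate metabolism, 0 were higher than in both wild-type clones and 2 were lower (6.17% higher and 10% lower over all genes). Their median was 0.00 where all genes had -0.02. PHGDH, the first enzyme of serine synthesis, had 335 and 258 in 3A4, against 1467 and 1165 in parental and 397 and 437 in 16F8. The log2 difference was -2.15 from parental (adjusted p = 4.61e-09) and -0.50 from 16F8 (adjusted p = 0.0113). SDHD, an anchor subunit of succinate dehydrogenase, differed by -0.28 ± 0.08. The bright Krebs cycle genes MDH2 (-0.13), CS (-0.02) and DLD (0.29) were not called against both.

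The EMT repressor ZEB1 was higher in 3A4. Its signal was 443 and 417 in 3A4, against 145 and 154 in parental and 102 and 117 in 16F8, and the groups did not overlap. The log2 difference from the wild-type mean was 1.73 ± 0.13 (limma adjusted p = 2.14e-08), and the other 3 ZEB1 probe sets gave 1.75 to 1.97. Of 7 tested EMT transcription factors ZEB1 was the 1 called higher (6.17% of all genes were higher and 10% lower). SOX4, a factor that acts in EMT and in progenitor cells, was the 1 called lower, at 313 and 305 in 3A4, against 951 and 911 in parental and 1199 and 1067 in 16F8 (log2 difference -1.73 ± 0.09). Against the wild-type mean alone, 2 of the 7 factors were higher and 2 were lower (15.3% higher and 20.1% lower over all genes). SNAI2, a further tested factor, was not called against both wild-type clones, but its 3A4 arrays lay above all wild-type arrays. It had 18 and 17 in 3A4, against 9.7 and 8.6 in parental and 7.1 and 9.7 in 16F8, which is near the background. TCF3 (0.12 ± 0.12), TWIST1 (-0.09 ± 0.17) and SNAI1 (0.33 ± 0.28) did not pass against the wild-type mean. ZEB2, the paralog of ZEB1, and CDH2, which encodes N-cadherin, were too dim to be tested.

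Most tested epithelial markers were lower in 3A4. Of 46 tested epithelial markers 26 were lower than in both wild-type clones and 3 were higher (6.17% of all genes were higher and 10% lower), and their median log2 difference was -0.68. CDH1, which encodes the junction protein E-cadherin, had 450 and 454 in 3A4, against 1527 and 1596 in parental and 1004 and 1045 in 16F8. All arrays of 3A4 lay below all wild-type arrays, with a log2 difference of -1.48 ± 0.12 (limma adjusted p = 6.7e-08). EPCAM, an epithelial adhesion protein, was at 1579 and 1392 in 3A4, against 2232 and 2702 in parental and 1879 and 2309 in 16F8 (log2 difference -0.61 ± 0.10). RAB25, a small GTPase of apical recycling, had the largest difference of the list, at 252 and 227 in 3A4, against 1606 and 1437 in parental and 1341 and 1239 in 16F8 (log2 difference -2.54 ± 0.09). GRHL2, a grainyhead factor that maintains epithelial genes, fell to 65.5 and 111 in 3A4, against 532 and 459 in parental and 475 and 486 in 16F8. AP1M2, the adaptor subunit for basolateral sorting, was at 38.8 and 44.8 in 3A4, against 232 and 232 in parental and 181 and 175 in 16F8. The protease PRSS8 (log2 difference -1.97 ± 0.19), the zinc finger factor OVOL1 (-1.84 ± 0.17) and the intestinal keratin KRT20 (-1.77 ± 0.24) were also lower, although a second OVOL1 probe set gave -0.31.

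Other epithelial genes were higher or showed no call. KRT8, a simple epithelial keratin, was higher in 3A4, at 2335 and 2486 against 1723, 1977, 1498 and 1773 in the wild-type arrays (log2 difference 0.47 ± 0.10). The other higher members were OVOL2 (0.98 ± 0.25), a zinc finger repressor of EMT, and C1orf116 (0.84 ± 0.22), both named after their values were seen. KRT18 and KRT19, further simple epithelial keratins, had log2 differences of 0.34 and 0.36 and were not called against both clones, and the desmosomal cadherin DSG2 had -0.13. Among 20 tested keratins and S100 proteins 4 were higher and 3 lower (6.17% higher and 10% lower over all genes), with a median of 0.29. Without the second 3A4 array 1 was higher and 3 were lower (422 higher and 718 lower over all genes, in place of 774 and 1260). S100A14, an epithelial calcium-binding protein, fell to 67.1 and 47.8 in 3A4, against 1505 and 1491 in parental and 914 and 860 in 16F8 (log2 difference -4.29 ± 0.15, limma adjusted p = 2.22e-12). KRT23 fell to 31.6 and 35.3, against 711 and 654 in parental and 369 and 308 in 16F8. The stratified keratin KRT13 (1.70 ± 0.21) and the calcium-binding S100A2 (0.66 ± 0.09) were higher.

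**Figure D1:**
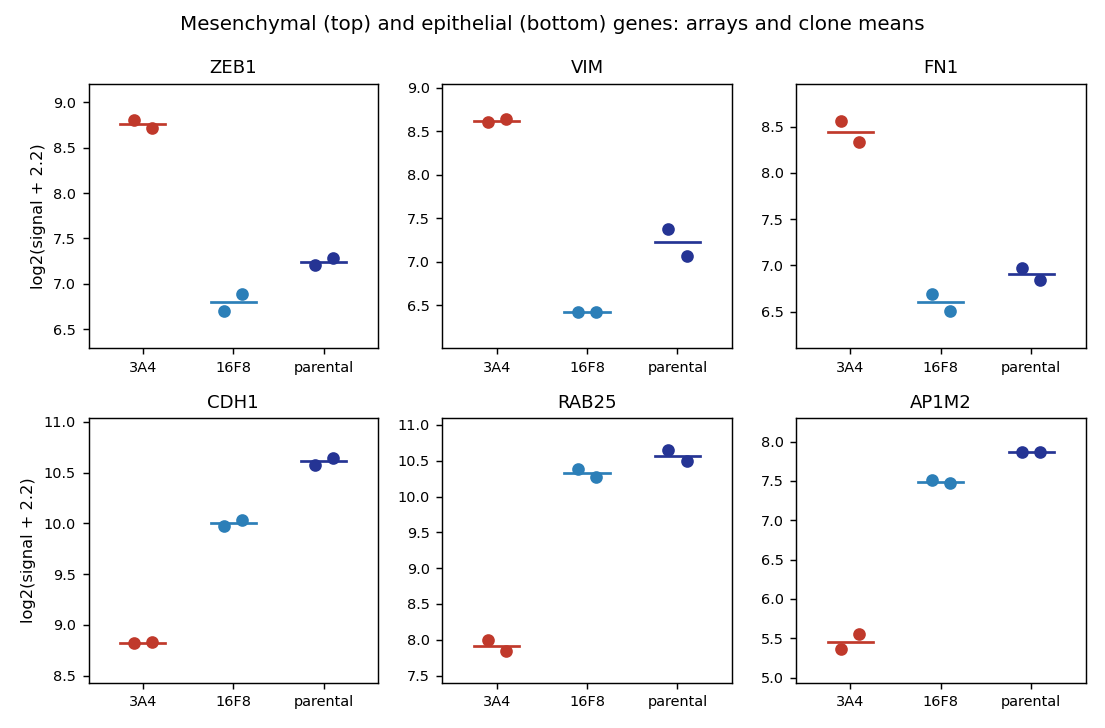
Each panel plots log2(signal + 2.2) of 1 gene for the 2 arrays (points) and the mean (bar) of 3A4, 16F8 and parental; the axes do not start at 0. ZEB1, VIM and FN1 lie higher in both 3A4 arrays than in the 4 wild-type arrays, and CDH1, RAB25 and AP1M2 lie lower.

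ZEB1 binds the E-box CAGGTG, which reads CACCTG on the other strand, so the sequences before epithelial genes that were lower in 3A4 are shown, with each match to either form in capitals. Among 27305 promoters in the RefSeq table (GRCh38.p14), 17.5% held at least 1 match in the 250 bases before the gene start. Of the 26 lower epithelial markers 14 had a promoter in the table, which is too few for a share over the list. A match was held by 8 of these 14, and by 14 of the 29 tested epithelial markers with a promoter. Over all genes tested with a promoter the share was 16.1%. Lower and uncalled markers both went either way. The lower CRB3 held 5, and the uncalled DSP and MYO5B held 2 and 3. The lower CLDN3, CLDN4, CLDN7, EHF and SPINT1 held 0, as did the uncalled CGN, GRHL1, JUP, KLF5, LSR, MARVELD2, SH2D3A and TJP3. Whether matches go with the calls was not tested. The RAB25 promoter (chr1:156060910-156061159, plus strand) held 1 match, 41 bases before the start. That of AP1M2 (chr19:10587313-10587562, minus strand) held 3, at 57, 27 and 15 bases, and that of S100A14 (chr1:153616326-153616575, minus strand) held 1, at 14 bases. The KRT20 promoter (chr17:40885243-40885492, minus strand) held 0 in this window. A match describes letters and is no evidence of binding.
RAB25: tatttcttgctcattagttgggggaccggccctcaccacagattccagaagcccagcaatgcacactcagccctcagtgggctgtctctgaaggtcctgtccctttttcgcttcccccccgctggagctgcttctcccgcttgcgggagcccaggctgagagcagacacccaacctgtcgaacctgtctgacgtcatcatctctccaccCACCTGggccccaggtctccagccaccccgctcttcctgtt
AP1M2: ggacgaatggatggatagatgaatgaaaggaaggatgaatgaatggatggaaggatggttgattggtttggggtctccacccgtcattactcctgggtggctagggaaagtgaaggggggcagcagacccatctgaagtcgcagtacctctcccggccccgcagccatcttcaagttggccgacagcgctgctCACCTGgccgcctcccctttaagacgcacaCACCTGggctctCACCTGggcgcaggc
S100A14: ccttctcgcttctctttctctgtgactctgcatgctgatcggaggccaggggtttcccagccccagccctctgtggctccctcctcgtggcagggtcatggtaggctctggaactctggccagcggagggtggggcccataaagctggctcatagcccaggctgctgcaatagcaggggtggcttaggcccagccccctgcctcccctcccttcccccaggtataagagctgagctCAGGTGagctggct
KRT20: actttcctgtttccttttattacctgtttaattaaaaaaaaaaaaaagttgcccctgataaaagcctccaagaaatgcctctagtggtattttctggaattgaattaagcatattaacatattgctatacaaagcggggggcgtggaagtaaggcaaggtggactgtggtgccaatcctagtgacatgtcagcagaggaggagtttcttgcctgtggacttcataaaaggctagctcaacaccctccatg

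Mesenchymal markers moved less uniformly. Of 30 tested members 7 were higher in 3A4 than in both wild-type clones and 2 were lower (6.17% higher and 10% lower over all genes), with a median of 0.29. VIM, the intermediate filament vimentin, had 386 and 396 in 3A4, against 164 and 132.2 in parental and 83.3 and 83.4 in 16F8 (log2 difference 1.80 ± 0.14, limma adjusted p = 4.74e-08). The matrix protein gene FN1 had 376 and 320 in 3A4, against 123 and 112 in parental and 101 and 88.9 in 16F8. CCN2, a matricellular target of YAP and TGF-beta, differed by 1.51 ± 0.21, and MYL9, a myosin light chain, by 0.77 ± 0.11. SPARC, a secreted matrix protein usually counted as mesenchymal, went the other way, at 18.1 and 10.8 in 3A4, against 46.8 and 40.4 in parental and 186 and 194 in 16F8 (log2 difference -2.53 ± 0.21). The tropomyosin TPM2 (0.31), S100A4 (0.44) and the hyaluronan receptor CD44 (0.11) were bright and not called against both. Of 18 tested integrins and laminins 5 were higher and 0 lower, with a median of 0.47, beside the same shares over all genes. They were the laminin chains LAMA4 (2.81 ± 0.32) and LAMC1 (0.50 ± 0.13) and the integrin subunits ITGB8 (1.13 ± 0.20), ITGA2 (0.97 ± 0.09) and ITGB5 (0.71 ± 0.11). ITGB1, ITGA6 and ITGAV, with differences of 0.28, -0.08 and 0.09, were not among them. A second ITGA2 probe set gave 0.67 from the wild-type mean but -0.03 from parental, and the other ITGB5 probe sets gave -0.21 to 0.83.

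TGF-beta and YAP targets gave 5 higher and 2 lower of 30 tested (6.17% higher and 10% lower over all genes), with a median of 0.16. PMEPA1, a TGF-beta-induced inhibitor of SMAD signalling, was at 467 and 479 in 3A4, against 19.6 and 9.1 in parental and 9.6 and 11.7 in 16F8. The arrays of the groups lay far apart, with a log2 difference of 5.07 ± 0.29 (limma adjusted p = 1.05e-09), and 2 other PMEPA1 probe sets gave 1.44 and 3.83. SMAD7, the inhibitory SMAD that TGF-beta induces, had 143 and 170 in 3A4, against 67.4 and 54.4 in parental and 64.6 and 54.2 in 16F8. TGFBI, a secreted matrix protein, differed by 2.56 ± 0.42, and the ligand gene TGFB2 by 1.06 ± 0.18. SMAD4, the common partner of the receptor-regulated SMADs, was lower, at 307 and 307 in 3A4, against 692 and 589 in parental and 560 and 427 in 16F8 (log2 difference -0.86 ± 0.18). The other SMAD4 probe sets bright enough to be tested gave -0.38 and -0.19. Differences of ID3 (-0.42), AXL (0.32) and YAP1 (0.04) were not called against both.

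Among the genes called against both wild-type clones, NRP1, a co-receptor for semaphorins and VEGF, had the highest log2 difference from the wild-type mean, 5.17. Its signal was 666 and 755 in 3A4, against 103 and 80.6 in parental and 4.1 and 0.6 in 16F8, which is at background. The kinase gene DCLK1 followed, with 716 and 681 in 3A4, against 90.8 and 85.1 in parental and 3.3 and 1.6 in 16F8. For both genes the wild-type clones themselves lay far apart, and the log2 differences were 2.93 and 2.96 from parental and 7.40 and 7.26 from 16F8. Against parental alone PMEPA1 (4.92), RGS4 (4.40) and CLEC2B (3.52) differed by more than NRP1. RGS4, which limits G protein signalling, had 233 and 228 in 3A4, against 13.5 at most in the wild-type arrays. CPA4, a secreted carboxypeptidase, had 2070 and 2272 in 3A4, against 289 and 223 in parental and 212 and 122 in 16F8. PMEPA1, described above, was also among the 12 highest. The other 7 of the 12 highest, at log2 differences of 3.07 to 4.05, were CLEC2B, a ligand of an NK cell receptor, MARCHF4, a ubiquitin ligase, TMEM158, MAP6, a microtubule-stabilising protein, MUC13, an intestinal mucin, GRIK2, a glutamate receptor subunit, and SYTL2, a vesicle-trafficking protein. Genes were tested where both arrays of at least 1 clone reached the array median. CLEC2B, MAP6 and MARCHF4 did so in 3A4 alone, and so entered the test only through 3A4.

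At the other end, TTC22, a tetratricopeptide protein, fell to 2.2 and 1.2 in 3A4, against 117 and 99.7 in parental and 225 and 200 in 16F8 (log2 difference -5.31 ± 0.21). PCDH7, a protocadherin, fell to 83.6 and 82.6, against 1709 and 1747 in parental and 1474 and 1413 in 16F8 (log2 difference -4.21 ± 0.09, limma adjusted p = 1.81e-15). UTS2, which encodes the peptide urotensin II, fell to 3.8 and 4.4, against 193 and 145 in parental and 167 and 136 in 16F8. FXYD3, a regulator of the sodium pump in epithelia, fell to 9.3 and 10.6, against 211 and 183 in parental and 132.1 and 131.5 in 16F8. S100A14 and KRT23 were also among the 12 lowest, with SGPP2, SERPING1, IFITM1, TSPAN2, PLPPR4 and SERPINA3, at log2 differences of -3.88 to -3.49. SGPP2, a sphingosine-phosphate phosphatase, had a second tested probe set at -0.21. SERPINA3, an acute-phase protease inhibitor, differed by -5.27 from parental but by -1.70 from 16F8.

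**Figure D2:**
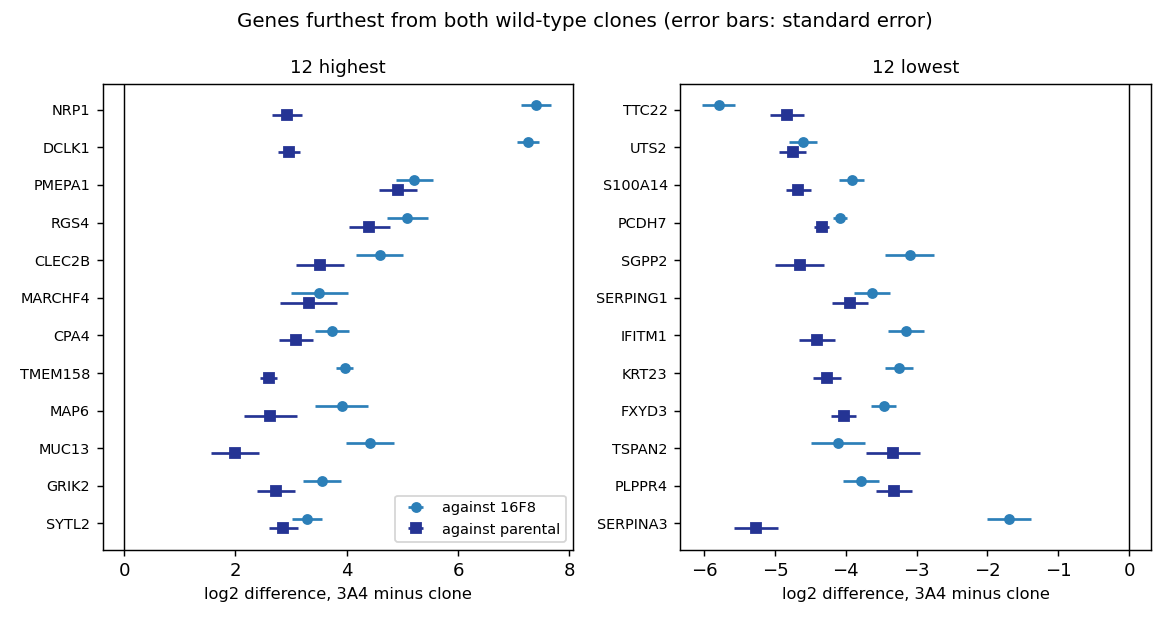
The plot shows log2 differences of 3A4 from 16F8 (circles) and from parental (squares) with standard errors, for the 12 genes highest and the 12 lowest in 3A4 among those called against both. All lie on 1 side of 0 for both clones. NRP1 and DCLK1 differ by over 7 from 16F8 and by under 3 from parental.

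Some genes set 3A4 apart from all 8 other clones. In 379 genes 3A4 passed against each of them in 1 direction (3.02%), 143 higher (1.14%) and 236 lower (1.88%). The count was 246 without the first and 162 without the second 3A4 array. Among the lower genes was LMAN1, which encodes a cargo receptor that carries coagulation factors and other glycoproteins out of the endoplasmic reticulum. Its signal was 298 and 298 in 3A4, against 2003 and 2485 in parental, 1782 and 1937 in 16F8, and clone means of 1674 to 2001 in the other 6 clones. The log2 difference from the wild-type mean was -2.76 ± 0.09, and all 3 LMAN1 probe sets were lower, by log2 differences of -2.36 to -3.10. On clone means it had the smallest p of all genes, with a limma adjusted p of 0.000132. SERPING1, the C1 inhibitor of complement, had 0.5 and 0.5 in 3A4, against 39.4, 39.0, 36.4 and 26.8 in the wild-type arrays and clone means of 13.1 to 43.7 in the other 6 clones (adjusted p = 0.00328 on clone means). SERPINA5, the protein C inhibitor, had 14.8 and 11.6 in 3A4, against 219 and 210 in parental and 129 and 117 in 16F8 (0.00564). UTS2 was the fourth, at 4.1 on average in 3A4 and 63.0 to 155 in the other 6 clones (0.00761).

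The other genes lowest apart from all 8 clones were TTC22, PLPPR4, RHOBTB1 and the GM-CSF receptor subunit CSF2RA. RHOBTB1 had 12.8 and 15.7 in 3A4, against 69.6, 75.6, 131.9 and 127 in the wild-type arrays and 60.3 to 136 in the other mutant arrays. The highest were CLEC2B, MAP6, MARCHF4, IFI16, LAMA4, GALNT5, TUSC3 and KCNH8. Of these, CLEC2B, MAP6, MARCHF4, IFI16, TUSC3 and KCNH8 reached the array median in both arrays of 3A4 alone. They entered the test only through 3A4, where they are high. How many of the 143 higher genes entered in this way was not counted. CLEC2B had 147 and 128 in 3A4, against 3.1 to 10.3 in the wild-type arrays and 0.2 to 7.5 in the arrays of the other 6 clones. IFI16, a sensor of DNA, had 31.5 and 28.6 in 3A4, against 7.7 at most in the wild-type arrays and 5.4 at most in the other mutant arrays. GALNT5, which starts mucin-type glycans, had 368 and 319 in 3A4, against 77.0, 86.8, 72.2 and 53.7 in the wild-type arrays. KCNH8, a potassium channel gene, was near the background even where it was highest, with 14.8 and 17.0 in 3A4.

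**Figure D3:**
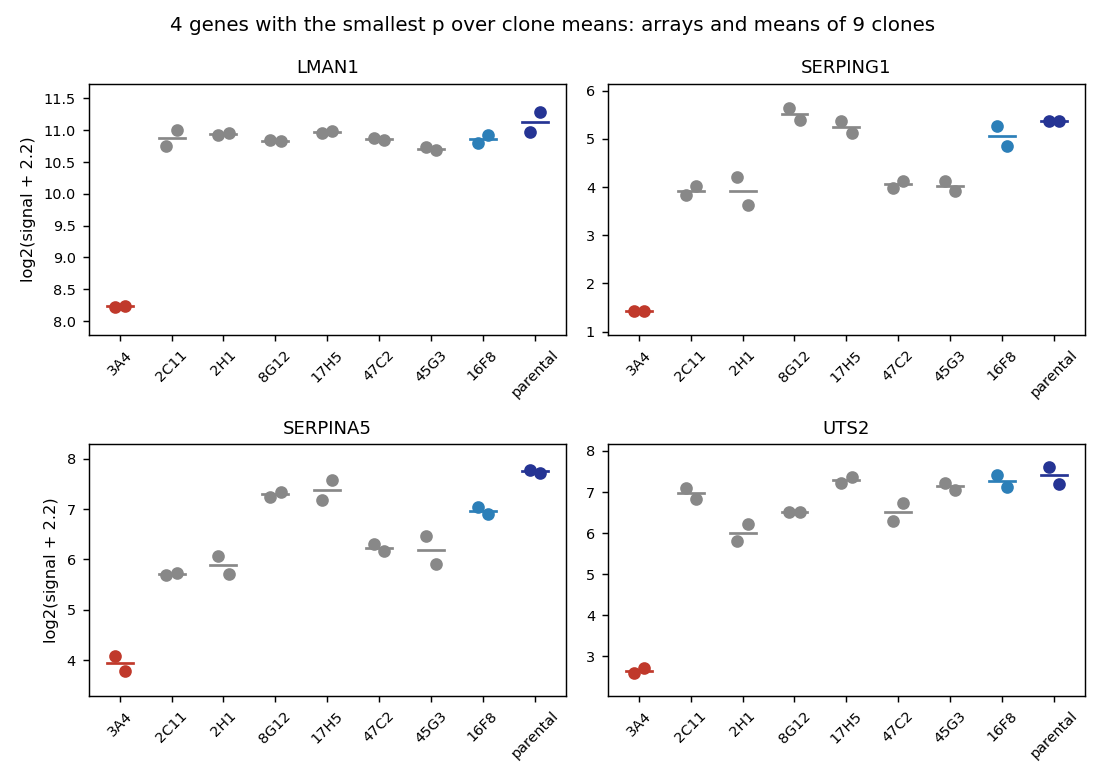
The 4 panels plot log2(signal + 2.2) for the 2 arrays (points) and the mean (bar) of each of the 9 clones, with 3A4 in red, the other mutant clones in grey and the wild-type clones in blue; the axes do not start at 0. 3A4 lies below all other clones for LMAN1, SERPING1, SERPINA5 and UTS2.

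All calls among p53 targets were higher in 3A4. Of 25 tested members 11 were higher than in both wild-type clones and 0 were lower (6.17% higher and 10% lower over all genes), with a median of 0.37. TP53I3, a quinone oxidoreductase, had 706 and 661 in 3A4, against 382 and 262 in parental and 385 and 339 in 16F8 (log2 difference 1.01 ± 0.12, limma adjusted p = 4.81e-06). TIGAR, which diverts glucose to the pentose phosphate pathway, had 758 and 740 in 3A4, against 332 and 334 in parental and 454 and 410 in 16F8. The DNA repair genes DDB2 (0.99 ± 0.14) and POLH (0.76 ± 0.13), the death receptor FAS (0.75 ± 0.12) and the phosphatase PPM1D (0.66 ± 0.09) were also higher. A second bright PPM1D probe set gave -0.10, with means of 350 in 3A4, 366 in parental and 384 in 16F8. The list had 5 higher members without the first 3A4 array and 7 without the first 16F8 array. Over all genes the higher calls were 506 and 547, in place of 774. Bright targets with little difference were MDM2 (0.07), CCNG1 (-0.04) and TNFRSF10B (0.05). Of 33 tested cell cycle and replication genes 0 were called in either direction against both wild-type clones (16.2% of all genes were called). Against parental 21 of them were higher (17.6% over all genes). Against 16F8 5 were lower, near the 16% over all genes, while 16F8 itself had 23 higher than parental (12.4% over all genes). BIRC5, RRM2 and CCND1 had differences of 0.28, 0.05 and 0.24 from the wild-type mean.

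Of 26 tested genes of cholesterol and fatty acid synthesis 7 were lower and 0 higher in 3A4 (10% lower and 6.17% higher over all genes), with a median of -0.32. SREBF2, the master regulator of sterol synthesis, had 188 and 171 in 3A4, against 355 and 323 in parental and 353 and 443 in 16F8 (log2 difference -1.02 ± 0.12), and a second probe set gave -0.27. The sterol carrier STARD4 differed by -1.14 ± 0.13, squalene epoxidase SQLE by -0.63 ± 0.08, SC5D by -0.61 ± 0.15, the desaturase SCD by -0.56 ± 0.12 and the elongase ELOVL6 by -0.48 ± 0.09. EBP (0.11), MSMO1 (-0.07) and FDPS (-0.18) were not called against both. The list had 3 lower members without the second 3A4 array and 4 without the second parental array. Over all genes the lower calls were 718 and 1133, in place of 1260. In fatty acid oxidation and the carnitine shuttle 2 of 22 were higher and 4 lower (6.17% higher and 10% lower over all genes), with a median of -0.08. CPT1C, a neuronal relative of carnitine palmitoyltransferase, had 41.5 and 22.8 in 3A4, against 197 and 150 in parental and 211 and 157 in 16F8 (log2 difference -2.44 ± 0.21). The carnitine carrier SLC25A20 was higher (0.91 ± 0.13), and the acyl-CoA synthetases ACSL1 (-0.88 ± 0.12) and ACSL4 (-0.70 ± 0.15) were lower. The list had 3 calls without the second 3A4 array, in place of 6 (1140 over all genes, in place of 2034).

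Among 34 tested hypoxia and glycolysis genes 3 were higher and 6 lower (6.17% higher and 10% lower over all genes), with a median of -0.07. The glucose transporter SLC2A3 had 87.2 and 89.2 in 3A4, against 352 and 341 in parental and 363 and 334 in 16F8 (log2 difference -1.95 ± 0.12, limma adjusted p = 1.62e-09). ALDOC, a brain-type aldolase, had 134 and 147 in 3A4, against 461 and 469 in parental and 735 and 607 in 16F8. The pyruvate dehydrogenase kinase PDK1 differed by -0.74 ± 0.13, and PFKL, a phosphofructokinase, by -0.62 ± 0.16. PDK3 had -0.95 ± 0.12 on its brightest probe set and 0.23, 0.21 and -0.25 on its other tested ones. The carbonic anhydrase CA12 was higher (1.21 ± 0.16), while LDHA (0.28), PKM (0.20) and PGK1 (0.07) did not pass. The list had 4 calls without the first 3A4 array and 5 without the first parental array, in place of 9. Over all genes the calls were 1491 and 1676, in place of 2034.

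Stress and amino acid genes depended on the wild-type clone used. Of 39 tested genes of the amino acid response and serine synthesis 0 were higher than in both and 4 were lower, close to the 10% lower over all genes. These were PHGDH, ALDH1L2 (-1.55 ± 0.24), CTH (-0.90 ± 0.10) and PYCR1 (-0.67 ± 0.10), enzymes of serine, folate, cysteine and proline metabolism. Against parental 29 were lower and 2 higher, with a median of -0.86 (19.6% lower and 17.6% higher over all genes). Against 16F8 5 were lower and 7 higher, with a median of 0.14 (16% lower and 10.4% higher over all genes). 16F8 itself had 30 lower than parental (9.57% over all genes). ATF4, SLC38A2 and SHMT2 had differences of 0.18, -0.26 and 0.16 from the wild-type mean. Of 20 tested endoplasmic reticulum chaperones and unfolded protein response genes 2 were higher and 1 lower (6.17% higher and 10% lower over all genes). XBP1, a factor of this response, had 363 and 261 in 3A4, against 769 and 778 in parental and 431 and 480 in 16F8, and the disulfide isomerase PDIA4 was higher (0.61 ± 0.10), as was the co-chaperone DNAJB11 (0.35 ± 0.08). Of 24 tested NRF2, glutathione and NADPH genes 3 were higher and 2 lower, beside the same shares over all genes. The aldo-keto reductase AKR1B10 had 113 and 109 in 3A4, against 7.4 and 11.4 in parental and 15.1 and 20.4 in 16F8 (log2 difference 2.91 ± 0.26). HMOX1, the heme oxygenase, differed by 1.26 ± 0.15 and GCLM, of glutathione synthesis, by 0.62 ± 0.13, while NQO1 (0.32), TXNRD1 (0.32) and FTL (0.24) were not called against both.

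**Figure D4:**
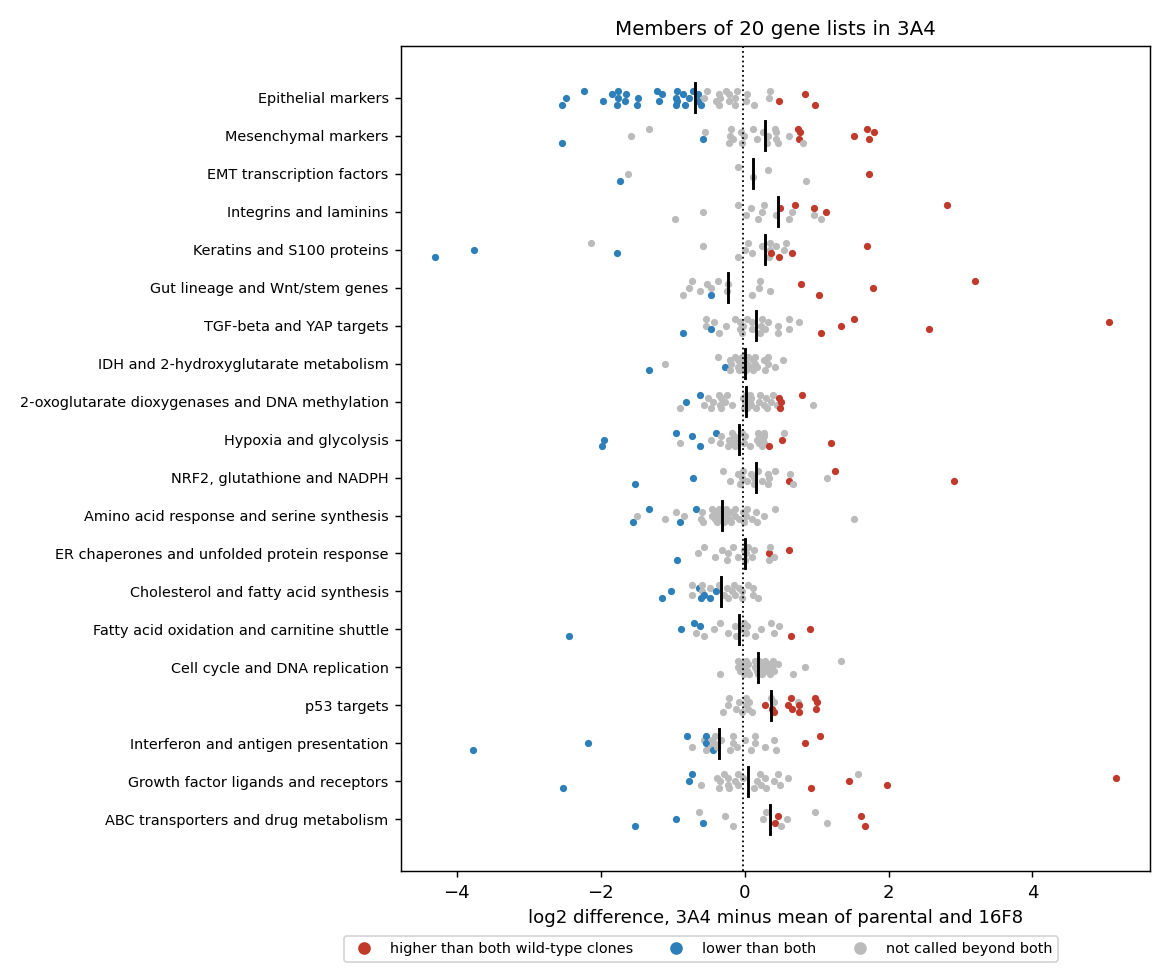
The points are the tested members of 20 gene lists by log2 difference of 3A4 from the mean of parental and 16F8, coloured by whether 3A4 was called higher than both wild-type clones, lower than both or neither. Black bars are list medians and the dotted line is the median of all 12541 genes at -0.02. The epithelial list has its median at -0.68, and the p53 list has 11 members higher and 0 lower.

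Enzymes that use 2-oxoglutarate and the DNA methylation machinery were called about as often as all genes, with 4 higher and 2 lower of 39 tested (15.4% called, against 16.2% of all genes) and a median of 0.03. Without the first 16F8 array 3 members were called (1380 over all genes, in place of 2034). DNMT3B, a de novo DNA methyltransferase, had 86.4 and 105 in 3A4, against 184 and 194 in parental and 176 and 131 in 16F8 (log2 difference -0.82 ± 0.14, limma adjusted p = 0.00023). The histone demethylase KDM5A was lower (-0.62 ± 0.15) on its brightest probe set, and its other 4 gave -0.57 to 0.13. JMJD6, a JmjC hydroxylase (0.80 ± 0.10), and P4HA2, a collagen prolyl hydroxylase (0.51 ± 0.11), were higher. The Polycomb subunits EZH2 (0.50 ± 0.08) and EED (0.48 ± 0.09) were higher too, and SUZ12 had 0.08. The hydroxylase complex gene P4HB and the RNA demethylase ALKBH5, with 0.31 and 0.21, were not called against both.

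Drug transporters changed in both directions, with 4 higher and 3 lower of 16 tested (6.17% higher and 10% lower over all genes) and a median of 0.36. The efflux pumps ABCG2 and ABCB1 were higher. ABCG2 had 124 and 153 in 3A4, against 24.8 and 35.7 in parental and 56.5 and 59.4 in 16F8, and ABCB1 had 120 and 110, against 40.2 and 33.9 in parental and 34.5 and 35.5 in 16F8. Their log2 differences were 1.68 ± 0.21 and 1.62 ± 0.17, and that of ABCC1 was 0.47 ± 0.09. ABCC2 (-1.52 ± 0.13), ABCC4 (-0.96 ± 0.10) and the fatty aldehyde dehydrogenase ALDH3A2 (-0.58 ± 0.08) were lower. Differences of MGST1, ABCC5 and ABCC3, at 0.26, -0.16 and -0.63, were not called against both.

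Of 28 tested interferon and antigen presentation genes 2 were higher and 6 lower (6.17% higher and 10% lower over all genes), with a median of -0.36. Without the first 16F8 array 4 members were called, and without the first 3A4 array 5 were. Over all genes the calls were 1380 and 1491, in place of 2034. IFITM1, an antiviral membrane protein, fell to 3.7 and 3.6 in 3A4, against 118 and 125 in parental and 62.0 and 39.9 in 16F8 (log2 difference -3.78 ± 0.22, limma adjusted p = 1.06e-09). BST2, the virus-tethering protein tetherin, had 3.1 and 3.9 in 3A4, against 32.5, 31.9, 19.7 and 14.8 in the wild-type arrays. The class I regulator NLRC5 (-0.80 ± 0.17) and the class I gene HLA-E (-0.54 ± 0.08) were lower, while OAS1 (1.05 ± 0.25) and IFI44 (0.83 ± 0.24), which are dim here, were higher. HLA genes are near-identical to each other, so signals of one and another cannot be told apart with certainty. B2M (-0.16), IFITM2 (-0.41) and HLA-B (-0.33) were not called against both.

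Growth factor genes gave 4 higher and 3 lower of 30 tested (6.17% higher and 10% lower over all genes). IGFBP6, which binds insulin-like growth factors, had 1149 and 1240 in 3A4, against 272 and 272 in parental and 344 and 318 in 16F8 (log2 difference 1.99 ± 0.08, limma adjusted p = 8.8e-12). FOSL1, a transcription factor downstream of MAP kinase, had 1786 and 1606 in 3A4, against 1093 and 974 in parental and 842 and 716 in 16F8. The ligand EGF was higher (1.46 ± 0.24), the receptor ERBB3 lower (-0.77 ± 0.11), and FGFBP1, a carrier of fibroblast growth factors, fell to 59.6 and 58.5 in 3A4, against 244 and 171 in parental and 671 and 525 in 16F8. ETV5 (0.13), EREG (-0.03) and MET (-0.08) were not called against both. Of 18 tested gut lineage and Wnt genes 4 were higher and 1 lower, beside the same shares over all genes. Without the first parental array 3 were higher and 0 lower (671 higher and 1005 lower over all genes, in place of 774 and 1260). MUC13 had 101 and 105 in 3A4, against 26.4 and 22.0 in parental and 5.8 and 0.8 in 16F8. The Wnt inhibitor DKK1 had 2488 and 2516 in 3A4, against 1516 and 1700 in parental and 1401 and 1234 in 16F8, and CEACAM1 (1.79 ± 0.25), an adhesion molecule, and FOXA1 (1.03 ± 0.27), a pioneer factor, were also higher. The Wnt receptor ligase RNF43 was lower (-0.47 ± 0.09). The Wnt target AXIN2 was 1.03 above parental and had -0.62 against 16F8, both past the threshold, so that it had no common direction.

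Position in the genome was examined by chromosome. Median log2 differences from the wild-type mean ran from -0.11 over 210 genes of chromosome 13 to 0.07 over 307 genes of chromosome 22, against -0.02 over all genes.

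3A4 shares its mutated gene and residue with the R132H clones 2C11 and 2H1, against which 2529 genes passed in the mean of both (20.2%), and 941 passed against each in 1 direction (7.5%), 384 higher (3.06%) and 557 lower (4.44%). The first count was 1396 without the first and 960 without the second 3A4 array. For CDH1 and ZEB1 the values in 3A4 were closer to 2H1 than to 2C11. CDH1 had 450 and 454 in 3A4, against 462 and 494 in 2H1 and 928 and 657 in 2C11, and ZEB1 had 443 and 417, against 384 and 430 in 2H1 and 225 and 209 in 2C11. Of the 26 lower epithelial markers, 4 were also lower than in both R132H clones, where 4.44% of all genes were. The 26 were picked as lower in 3A4, so these shares are not alike. The median of the 46 tested epithelial markers was -0.45 against 2C11 and 0.07 against 2H1 (-0.03 and -0.004 over all genes). SPARC separated 3A4 from both, at 18.1 and 10.8 in 3A4, against 215 and 149 in 2C11 and 197 and 179 in 2H1. TUSC3, a subunit of the oligosaccharyltransferase complex, had 48.1 and 49.6 in 3A4, against 0.8 at most in the R132H arrays, 8.4 and 12.7 in parental and 2.0 and 1.2 in 16F8. ANXA10, an annexin of the stomach, and the zinc finger gene ZNF709 were called against both R132H clones and were not called against parental (log2 differences from parental of -0.75 and -0.46). ANXA10 had 130 and 111 in 3A4, against 2.5, 3.5, 17.2 and 10.6 in the R132H arrays and 243 and 170 in parental.

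**Figure D5:**
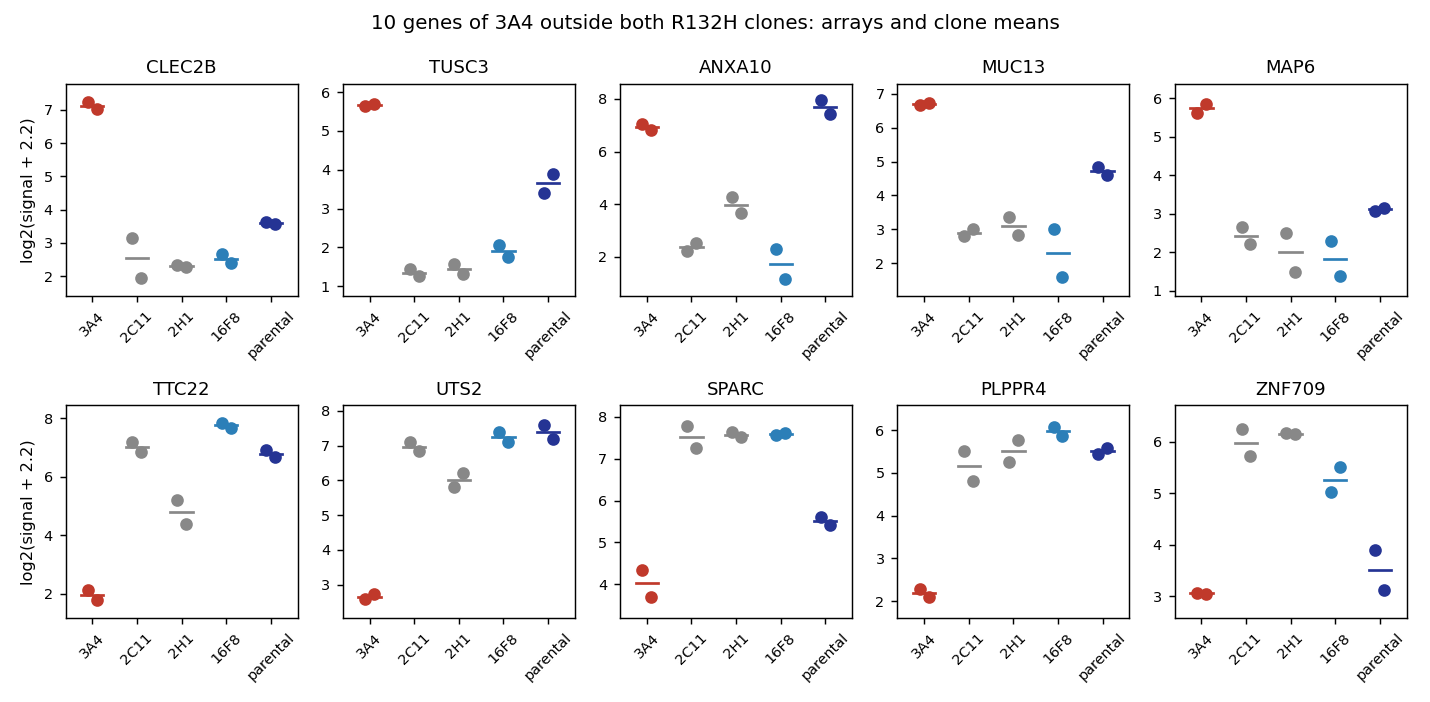
Each panel plots log2(signal + 2.2) of 1 gene for the 2 arrays (points) and the mean (bar) of 3A4, the R132H clones 2C11 and 2H1, 16F8 and parental, for the 5 genes highest and the 5 lowest in 3A4 against both R132H clones; the axes do not start at 0. CLEC2B, TUSC3, MUC13 and MAP6 are highest in 3A4, whereas ANXA10 is higher in both parental arrays.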

How the data were processed

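RNA of 18 cultures was measured on Affymetrix arrays with 54675 probe sets. The deposited intensity values are on a linear scale and were made with MAS5, per the submitters' processing notes; the version was not given in the sources used here, nor were its settings. The mean of the middle of each array is nearly equal, so the authors scaled the arrays to 1 level. Arrays give no read depth, and precision is limited by how many there are.

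A gene was represented by its brightest probe set of a single gene (41091 probe sets, 19775 genes), and 1801 probe sets of several genes and 11721 of none were left out. The 12541 genes with both arrays of at least 1 clone at or above the array median were tested. Values were log2(signal + 2.2), where 2.2 is the 25th percentile of all values. limma 3.58.1 in R 4.3.3 (lmFit, eBayes with trend) was fitted over 18 arrays with 1 coefficient per clone, and p-values were Benjamini-Hochberg adjusted over all genes with a threshold of 0.05. A second fit used 9 clone means in 5 genotypes. The procedure was tested on simulated data with planted changes in 3A4 and otherwise only the spread between replicate arrays. That test cannot check the spread between clones. Replicate numbers were not taken to pair the arrays: deviations of same-numbered arrays correlated at -0.35 to 0.38 over 36 pairs of clones, and 3 pairs were over 0.1. The highest, 0.38, was that of parental and 16F8, the 2 wild-type clones. Their first arrays are both among the 4 with high poly-A controls, so the wild-type arrays may share an array effect.

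Members and gene lists were chosen with earlier results of these data known. Of 643 genes in 23 lists 517 were tested, 50 had no probe set of their own, and 32 were in more than 1 list. Named genes were a fixed set, the 12 highest and lowest against both wild-type clones, 8 highest and lowest against all 8 clones, 5 against R132H, 4 by clone means, and per list up to 6 called and the 3 brightest not called. Alternatives were the offset, filter, normalization, probe set, trend, wild-type clone, arrays fitted, replicate block and leaving out each array. Omitting 4 arrays with high poly-A controls, or a term for them, was added after seeing the data.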

Additional observations from a re-analysis of the deposited data

Results flagged for a closer look

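The 5 genes highest and the 5 lowest in 3A4 against the R132H clones are given because a direct limma test separated the clones of the 2 IDH1 mutations. Each value is the log2 difference of 3A4 from the mean of 2C11 and 2H1, with its standard error. The difference of clone and mutation cannot be told apart with 1 R132C clone.

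Higher in 3A4 were CLEC2B (4.68 ± 0.37), TUSC3 (4.27 ± 0.43), ANXA10 (3.76 ± 0.67), MUC13 (3.70 ± 0.38) and MAP6 (3.53 ± 0.41). Against the wild-type mean the same genes had 4.05, 2.89, 2.23, 3.21 and 3.27, and ANXA10 had -0.75 against parental alone, which did not pass. The ANXA10 difference had the largest adjusted p of the 10, 0.000907. CLEC2B, TUSC3 and MAP6 entered the test only through 3A4, the 1 clone in which both arrays reached the array median.

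Lower in 3A4 were TTC22 (-3.95 ± 0.21), UTS2 (-3.84 ± 0.17), SPARC (-3.52 ± 0.21), PLPPR4 (-3.14 ± 0.22) and ZNF709 (-3.02 ± 0.25). TTC22 had 2.2 and 1.2 in 3A4, against 144, 113, 34.3 and 18.5 in the R132H arrays. ZNF709 had 6.2 and 6.0 in 3A4, against 73.7, 50.6, 69.5 and 69.1 in the R132H arrays and 12.7 and 6.5 in parental.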

How the results depend on the processing

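The count of genes called against both wild-type clones was 1370 to 2274 over the alternatives that kept all 6 arrays or dropped the 4 poly-A arrays (parental 1, 16F8 1, 2C11 1 and 8G12 2), and 1140 to 1786 when 1 array was left out. With the replicate block it was 2033, against 4427 for the wild-type mean, 389 apart from all 8 clones and 2511 against R132H, so that the block changed none of these counts by over 1.5 times. Leaving out 1 array gave 2488 to 4218 against the wild-type mean, 3139 to 4717 against parental, 1866 to 3374 against 16F8, 162 to 347 apart from all 8 clones, 960 to 2592 against R132H and 1577 to 2624 for 16F8 against parental. The 16F8 and parental comparison had 1728 calls without the 4 poly-A arrays, and the genes apart from all 8 clones numbered 220 with the filter at the 75th percentile. Clone means were least stable, with 1086 calls with the clone as a random block, 79 without trend, 19 with the filter at the 75th percentile, 61 without the 4 poly-A arrays and 71 to 302 with 1 array left out. No replicate block could be fitted to clone means, and the 6 arrays alone cannot give the comparisons with other mutant clones.

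Over named genes, 3308 gene values under an alternative kept direction and side of the threshold, 42 newly passed and 130 no longer passed. Sign changed in 63 values that passed under neither setting and in 7 that passed under at least 1. ANXA10 was -0.75 against parental alone, and AXIN2 was -0.62 against 16F8 alone. With the most variable probe set CANX was -0.55, EREG 0.79, ITGA6 0.81, PDK3 0.21 and SHMT2 -0.31. The cause was not tested. Signals near the array median limit what can be said of dim genes, and 2 arrays of 1 clone limit all comparisons to that clone.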

Other observations

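A few genes outside the lists were picked after their values were seen because they were higher in 3A4 than in both wild-type clones, and they stand for no group. MMP1, an interstitial collagenase, had 54.2 and 38.4 in 3A4, against 7.7 and 14.8 in parental and 3.8 and 2.8 in 16F8 (log2 difference 2.51 ± 0.35). MMP1 reached the array median in both arrays of 3A4 alone, and so entered the test only through 3A4. TGM2, a protein-crosslinking transglutaminase, had 564 and 553 in 3A4, against 113 and 91.3 in parental and 112 and 96.9 in 16F8. SPP1, which encodes osteopontin, had 223 and 232 in 3A4, against 37.4 and 39.5 in parental and 67.8 and 68.2 in 16F8. SERPINA1, an elastase inhibitor, had 779 and 732 in 3A4, against 208 and 222 in parental and 205 and 174 in 16F8. MMP1, TGM2, SPP1 and SERPINA1 were each called above all 8 other clones.

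Around LMAN1, the chromosome 18 gene CCBE1 had 1.5 and 0.4 in 3A4, against 11.7 and 8.9 in parental and 12.4 and 13.7 in 16F8, and was below all 8 other clones although dim in all of them. Of its neighbours, SEC11C and PMAIP1 had log2 differences of -0.22 and -0.15 from the wild-type mean and were not called against both. They were called lower against parental alone (-0.35 and -0.38), and had -0.08 and 0.08 against 16F8. MCFD2, which encodes the partner of the LMAN1 protein in cargo transport, had a log2 difference of -0.07 from the wild-type mean. It was called lower against parental (-0.30) and had 0.17 against 16F8, which did not pass.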
